A study of Rattus norvegicus with 5 samples.

Results

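The retina of a Sprague-Dawley (SD) rat 2 weeks into streptozotocin diabetes was compared with the retina of a control rat by droplet single-cell RNA sequencing. Streptozotocin destroys the insulin-producing beta cells of the pancreas. The diabetic rat had received a single injection of 45 mg/kg into the peritoneum, had been accepted as diabetic above 200 mg/dL of blood glucose and was then kept for 2 weeks on food rich in fat and sugar. The control rat, taken at 0 weeks, had received citrate buffer and carried no diabetes. The 2-week library was set against control replicate 2, and the other control was not analysed here. The diet and the interval since the injection came with the diabetes, so their parts cannot be told apart. Cells were released with 0.25% trypsin at 37 °C over about 40 min, strained at 40 µm and freed of red cells by lysis. The series holds 5 samples in all, and later diabetic libraries (4 and 8 weeks) are given beside single genes only as levels. Cells were chosen by having at least 200 genes and at most 20% of their transcripts from mitochondrial genes. This kept 12611 of 16128 barcodes at 2 weeks and 7400 of 9742 in control, together 20011 of the 32983 cells kept in the 4 libraries with a count matrix.

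The 2-week cells held 25543337 unique molecular identifiers (UMIs, one per captured transcript) and the control cells 15889862, with medians of 1263 and 1079.5 UMIs a cell. The median share of mitochondrial UMIs was 7.84% at 2 weeks and 3.30% in control. The libraries shared 42 barcode sequences. Each side is 1 library, so cells are not replicates, no test between the groups was possible, and every interval below covers counting error only. Differences between animals, dissections and library preparations are not in them. After removal of likely doublets, 10984 and 6823 cells were sorted into classes by marker genes, and levels are given as CPM, a gene's share of all UMIs in a class multiplied by 1000000. A gene was used at a mean of at least 20 CPM and at least 30 UMIs over the pair. It was called higher or lower at a difference of at least 2-fold with a 95% interval of the log2 ratio that leaves out 0.

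The retina turns light into nerve signals in rods and cones, passes them through bipolar cells and shapes them in amacrine cells. Müller glia span the tissue and supply the neurons, microglia are its resident immune cells, and endothelial cells with pericytes form its tight vessels. Photoreceptors have a very high demand for oxygen and energy. Cells short of amino acids, or under stress of the endoplasmic reticulum or mitochondria, slow general translation and make more of the transcription factor ATF4, which switches on genes of amino acid synthesis and uptake and tRNA synthetases.

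The make-up of the 2 suspensions differed. Rods were 80.0% of control cells and 71.3% at 2 weeks (log2 ratio -0.17, interval -0.19 to -0.14). The vascular classes took a larger share at 2 weeks. Endothelial cells stood at 1.35% in control and 3.83% at 2 weeks (1.50, 1.18 to 1.82). Pericytes and smooth muscle cells stood at 0.572% and 2.70% (2.23, 1.75 to 2.70), and of these the smooth muscle cluster held 2 control cells and 134 cells at 2 weeks. Glia and microglia took a smaller share. Müller glia stood at 5.75% in control and 3.68% at 2 weeks (-0.64, -0.84 to -0.45), and microglia at 1.99% and 0.938% (-1.09, -1.45 to -0.72). Amacrine cells were 2.46% and 4.33% (0.81, 0.56 to 1.06). Cones were 1.33% and 1.59%, a difference within counting error (0.25, -0.11 to 0.61). Erythroid cells, 46 in each library, were 0.674% and 0.419% (-0.69, -1.27 to -0.10).

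Bipolar cells stood at 3.36% of control cells and 8.89% at 2 weeks (1.40, 1.20 to 1.61), but that ratio depended on the mitochondrial limit. By nearest cluster mean, 87.0% of the control barcodes of bipolar type lay over the limit and 67.3% of those at 2 weeks. With no limit the log2 ratio of the shares was 0.07, and with a limit of 10% it was -0.11. Müller glia lost 1.01% of their control barcodes and 22.0% of their 2-week barcodes to the same limit, and their ratio without it was -0.30. The mitochondrial filter thus weighed on these classes unequally, as the plot of shares shows.

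**Figure D1:**
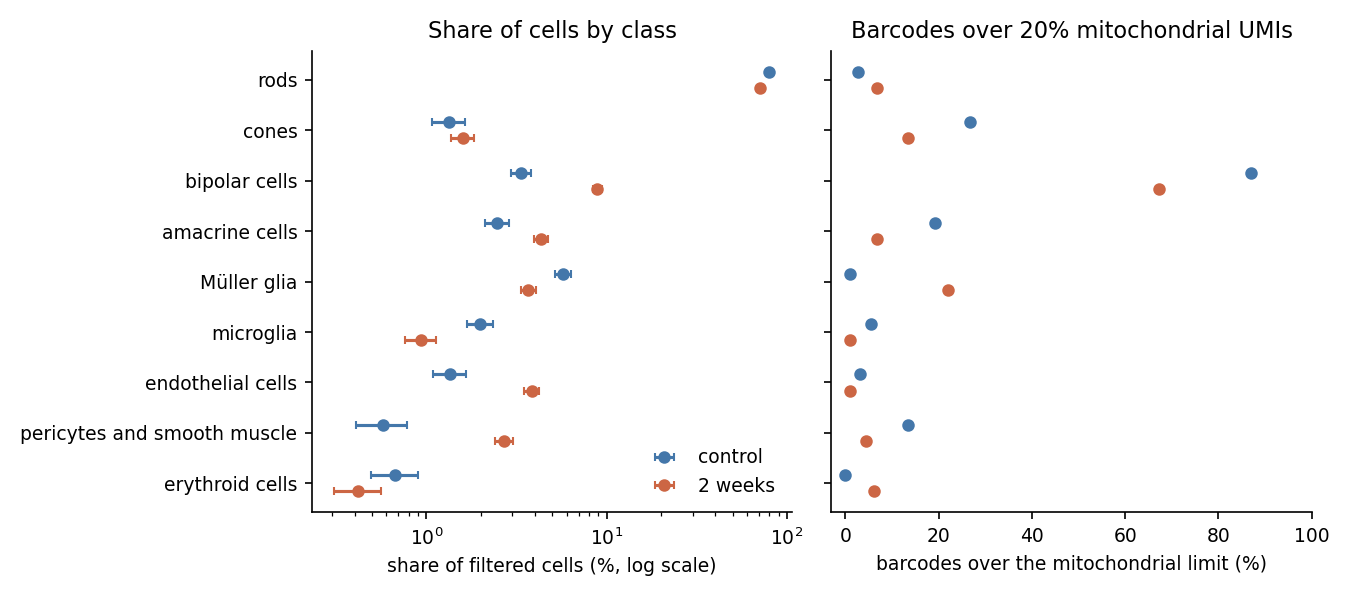
Left, share of filtered cells in each class (percent, log scale) in the control library (blue) and the 2-week library (orange), with exact binomial 95% intervals that cover counting error. Right, percent of barcodes of each class over the limit of 20% mitochondrial UMIs; bipolar cells stand at 87.0% in control and 67.3% at 2 weeks, far above every other class.

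Summed over all cells, 110 of 6235 used genes were called higher at 2 weeks (1.76%) and 231 lower (3.7%). The genes furthest up were mostly those of contractile vessel wall cells. Tagln, an actin-binding protein of smooth muscle, stood at 46.3 CPM in control against 532 CPM at 2 weeks (log2 ratio 3.52, 3.42 to 3.63). Myh11, the smooth muscle myosin heavy chain, stood at 4.15 and 54.6 CPM (3.71, 3.36 to 4.10). Pericytes and smooth muscle held 95.7% of the 2-week Tagln UMIs and 94.2% of those of Myh11. In control the largest part of the Tagln UMIs lay in unnamed clusters (58.4%), and that of Myh11 in rods (23.8%). With 39 control cells, pericytes and smooth muscle were too few to compare as a class. How far these differences come from the share of that class was not tested. Mustn1, S100a6, Crip1 and Tpm2 lay between 2.50 and 3.44, Sncg, one of the ganglion cell markers, at 3.32 and Nrgn at 3.04. Pericytes and smooth muscle held 57.6% of the 2-week Sncg UMIs, whereas endothelial cells held 62.5% of those of S100a6 and 44.7% of those of Nrgn. The genes furthest down were Chac1 (-5.19), Trib3 (-4.21), Mthfd2 (-4.03), Asns (-4.01), Sesn2 (-3.02) and Gdf15 (-3.01), all of the amino acid stress list described below for rods, with the red cell genes Lgals5 (-2.88) and Alas2 (-2.74).

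Rods held the largest number of called genes among the 7 classes compared: 567 of 5789 used genes were called lower at 2 weeks (9.79%) and 117 higher (2.02%), in 7836 rods against 5461. The median log2 ratio over all used genes was -0.27. Scaling the libraries to a common bulk of genes (TMM) moved all rod values up by 0.38 and turned the split to 419 higher and 187 lower, so the direction of small differences in rods depends on the scaling. The rods of the 2 libraries also lay in different clusters. Cluster 1 held 62.1% of the 2-week rods and 6.79% of the control rods, and cluster 2 held 54.9% of the control rods and 4.80% of those at 2 weeks. Each comparison was therefore also made inside each rod cluster to which both libraries gave 30 or more cells (4 clusters). Of the 117 genes called higher, 116 were above 0 in every one of these clusters, and of the 567 called lower, 436 were below 0 in each. Far fewer met the 2-fold and interval rule in each of the 4, namely 14 of the 117 and 64 of the 567.

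The widest group difference was in the amino acid stress genes. Of the 32 genes listed, 24 were used in rods, and 20 of them were called lower at 2 weeks and none higher, beside 9.79% called lower over all genes. Their median was -1.92, and inside the 4 clusters it lay between -1.81 and -1.31. With TMM scaling the median was -1.54. The tRNA synthetases, which load amino acids onto tRNAs, followed with 12 of 19 used members called lower, none higher and a median of -1.65 (-1.63 to -1.39 inside the clusters, -1.27 with TMM).

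The start regions of genes in both groups can carry the sequence that ATF4 and its partners of the C/EBP family bind, here searched as TGATGNAA on both strands. It was found in 3.98% of the 33469 RefSeq promoter windows of the rat build GRCr8, each 250 bases before to 50 bases after a gene's start. Of the 23 used amino acid stress genes with a window, 5 held it, and all 5 were among the 19 with a window that were called lower (Chac1, Trib3, Slc7a1, Slc1a4 and Pck2). Of the 16 used synthetases with a window, 7 held it, all among the 10 called lower (Aars, Cars, Iars, Mars, Nars, Tars and Yars). A match describes these letters only and is not evidence of binding. The 250 bases before the start are shown for the 4 amino acid stress genes and the 2 synthetases with the lowest ratios among those with a match, 5′ to 3′ on the gene's strand, with the match in capitals; where it lies on the opposite strand it reads as its reverse complement. The match begins 167 bases before the start in Chac1, 21 in Trib3, 30 in Slc7a1, 235 in Slc1a4, 24 in Iars (Iars1 in RefSeq) and 17 in Mars (Mars1).
Chac1, chr3:126795881-126796130, plus strand: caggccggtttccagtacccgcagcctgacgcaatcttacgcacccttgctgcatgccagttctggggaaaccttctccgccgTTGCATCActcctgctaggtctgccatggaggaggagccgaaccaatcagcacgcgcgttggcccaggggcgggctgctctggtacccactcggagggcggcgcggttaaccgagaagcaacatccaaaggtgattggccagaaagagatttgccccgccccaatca
Trib3, chr3:161275534-161275783, minus strand: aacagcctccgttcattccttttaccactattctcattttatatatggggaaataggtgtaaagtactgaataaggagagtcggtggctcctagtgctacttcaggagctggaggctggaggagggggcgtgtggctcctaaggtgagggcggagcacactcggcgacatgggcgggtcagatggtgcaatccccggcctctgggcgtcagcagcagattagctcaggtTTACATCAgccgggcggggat
Slc7a1, chr12:11664238-11664487, plus strand: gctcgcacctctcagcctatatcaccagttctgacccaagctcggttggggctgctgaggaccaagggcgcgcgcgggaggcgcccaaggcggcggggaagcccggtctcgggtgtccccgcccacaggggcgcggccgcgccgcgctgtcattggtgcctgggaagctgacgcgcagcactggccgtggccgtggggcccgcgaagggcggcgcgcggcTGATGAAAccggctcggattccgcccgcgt
Slc1a4, chr14:98761563-98761812, minus strand: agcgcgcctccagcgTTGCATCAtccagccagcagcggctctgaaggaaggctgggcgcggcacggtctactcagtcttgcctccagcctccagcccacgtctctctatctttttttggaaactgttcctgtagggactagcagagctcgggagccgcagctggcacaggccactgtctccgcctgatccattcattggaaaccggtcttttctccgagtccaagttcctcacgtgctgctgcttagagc
Iars, chr17:15193653-15193902, minus strand: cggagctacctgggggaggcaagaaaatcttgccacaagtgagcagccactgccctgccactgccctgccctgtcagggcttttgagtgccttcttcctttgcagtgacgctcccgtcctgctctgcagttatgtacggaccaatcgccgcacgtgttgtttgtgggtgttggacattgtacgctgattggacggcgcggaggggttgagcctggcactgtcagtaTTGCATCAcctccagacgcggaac
Mars, chr7:65023754-65024003, minus strand: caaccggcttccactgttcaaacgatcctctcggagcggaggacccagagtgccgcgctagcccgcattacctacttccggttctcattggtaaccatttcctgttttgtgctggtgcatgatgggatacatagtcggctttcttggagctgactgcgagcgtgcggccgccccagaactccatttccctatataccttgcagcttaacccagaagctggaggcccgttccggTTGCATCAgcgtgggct

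Chac1, an enzyme that breaks down glutathione, stood at 182 CPM in control rods and 0.345 CPM at 2 weeks, which is 1143 UMIs against 3 (log2 ratio -8.82, -11.32 to -7.49). It was detected in 883 of the control rods and in 3 of the 2-week rods. The later libraries lay in between, at 14.0 CPM at 4 weeks and 51.0 at 8 weeks. Trib3, a pseudokinase that feeds back on ATF4, stood at 408 and 19.0 CPM (-4.42, -4.66 to -4.20), with 208 and 262 CPM in the later libraries. Asns, the enzyme of asparagine synthesis, was at 267 and 9.79 CPM (-4.76, -5.10 to -4.46), with 18.8 and 211 later. In each of these genes the control rods were the highest of the 4 libraries and the 2-week rods the lowest.

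Most other members lay in the same direction. The serine and folate enzymes Psat1 (53.8 and 1.61 CPM, -5.01) and Mthfd2 (312 and 14.5 CPM, -4.42), and the stress sensor Sesn2 (218 and 9.33 CPM, -4.54), were lower at 2 weeks. So were the amino acid carriers Slc7a1 (64.4 and 2.42 CPM, -4.70), which takes up arginine and lysine, and Slc38a2 (569 and 46.7 CPM, -3.60). The stress factors Atf3 (415 and 25.9 CPM, -4.00), Gdf15 (170 and 17.8 CPM, -3.25) and Ddit3, also named CHOP (574 and 189 CPM, -1.61), were lower too. Eif4ebp1, a brake on translation outside the list, stood at 46.1 and 0.691 CPM (-5.95). Atf4 itself was used and not called, at 2960 and 2075 CPM (-0.51, -0.54 to -0.48). Ppp1r15a (140 and 107 CPM, -0.39) and Sesn3 (30.6 and 28.1 CPM, -0.13) were not called either.

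Among the synthetases, Mars, for methionine, stood at 304 CPM in control rods and 32.8 at 2 weeks (-3.21, -3.40 to -3.03), with 64.2 and 201 CPM at 4 and 8 weeks. Iars, for isoleucine, stood at 247 and 31.3 CPM (-2.98), Tars, for threonine, at 230 and 34.8 CPM (-2.72) and Lars, for leucine, at 597 and 92.9 CPM (-2.68). The members not called included Kars, for lysine (32.5 and 46.7 CPM, 0.52), Wars, for tryptophan (-0.16), and Farsa, for phenylalanine (-0.30). Outside rods, amino acid stress genes called lower numbered 1 of 10 used in cones, 0 of 14 in bipolar cells, 1 of 13 in amacrine cells, 0 of 17 in Müller glia, 2 of 13 in microglia and 2 of 12 in endothelial cells, where 1.24% to 2.42% of all used genes were called lower. Their medians there lay between -0.14 and 0.12. Synthetases called lower numbered 2 of 13 in cones, 1 of 20 in bipolar cells, 2 of 20 in amacrine cells, 1 of 18 in Müller glia, 1 of 14 in microglia and 1 of 18 in endothelial cells. Their medians were all below 0, from -0.61 in cones and -0.44 in bipolar cells to -0.13 in amacrine cells. The difference between rods and these classes was not tested.

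**Figure D2:**
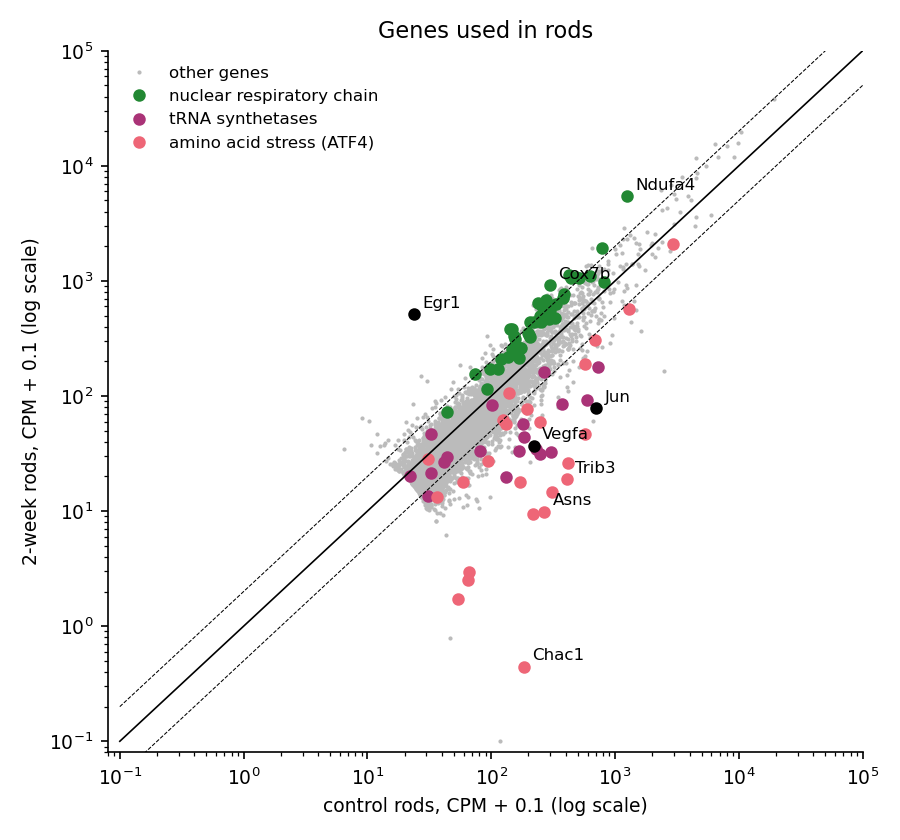
Each point is a gene used in rods, placed by its CPM in control rods (x) and 2-week rods (y), both with 0.1 added and on log scales; the solid line marks equal levels and the dashed lines 2-fold differences. Amino acid stress genes and tRNA synthetases lie mostly under the lower dashed line, with Chac1 lowest of them, and the nuclear respiratory chain genes lie above the line of equal levels.

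Genes of mitochondrial respiration stood higher in 2-week rods. Of 48 used nuclear genes of the respiratory chain, 18 were called higher, beside 2.02% over all genes, and none lower. All 48 were above 0, with a median of 0.91, but inside single clusters the median was 0.23 to 0.66 and 2 to 5 genes were called higher. Ndufa4, a subunit of cytochrome c oxidase, stood at 1256 CPM in control rods and 5440 at 2 weeks (2.11, 2.08 to 2.15) and at 1.29 to 1.60 inside clusters. It was 2539 CPM at 4 weeks and 1453 at 8 weeks, so the 2-week rods were the highest library. Cox7b (298 and 917 CPM, 1.62), Cox6c (426 and 1135 CPM, 1.41) and Cox8a (786 and 1915 CPM, 1.28), of the same oxidase, and Atp5f1d of the ATP synthase (238 and 643 CPM, 1.43) were called. Atp5f1b, a catalytic subunit of that synthase, was not (808 and 979 CPM, 0.28).

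The 13 genes encoded in the mitochondrial genome had a median of 0.94, and 6 were called higher, among them Mt-nd6 (23.5 and 85.3 CPM, 1.86) and Mt-co2 (6388 and 15558 CPM, 1.28). These genes make up the mitochondrial share by which cells were filtered, so their ratios cannot be told apart from that share and the filter. In rods with at most 5% mitochondrial UMIs the median was 0.41, but that limit holds these same genes down by construction. Inside clusters the median ran from -0.01 to 0.85. Glycolysis had 3 of 16 used genes called higher and none lower (median 0.58). Aldoa stood at 1186 and 2878 CPM (1.28), Pgam1 at 282 and 645 CPM (1.19) and Pgk1 at 297 and 669 CPM (1.17). Hk2, the hexokinase of photoreceptors, was not called (4388 and 3006 CPM, -0.55).
Among 14 oxidative defence genes, the peroxide reducers Prdx2 (216 and 616 CPM, 1.51) and Prdx1 (73.1 and 162 CPM, 1.15) and the thioredoxin Txn1 (1.12) were called higher and none lower.

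The phototransduction cascade differed less. Of 21 used rod genes, Sag, the arrestin that ends the light signal (3477 and 8010 CPM, 1.20), and Gnat1, the rod transducin (2850 and 6786 CPM, 1.25), were called higher and none lower. Grk1, a kinase that shuts the cascade off, stood at 614 and 344 CPM (-0.84). The list's median was 0.42 and lay between 0.23 and 0.40 inside clusters. Of 13 used circadian clock genes 4 were called lower, beside 9.79% over all genes, and none higher (median -0.71): Bhlhe41 (38.6 and 11.9 CPM, -1.70), Per3 (251 and 99.5 CPM, -1.34), Nr1d2 (-1.04) and Nfil3 (-1.04). With TMM scaling Per3 (-0.95), Nr1d2 (-0.66) and Nfil3 (-0.66) lay within 2-fold. Inside single clusters 0 to 1 clock genes were called lower and 0 to 1 higher, with medians of -0.50 to -0.44. The hour of day at which each retina was taken is not given in the sources used here.

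**Figure D3:**
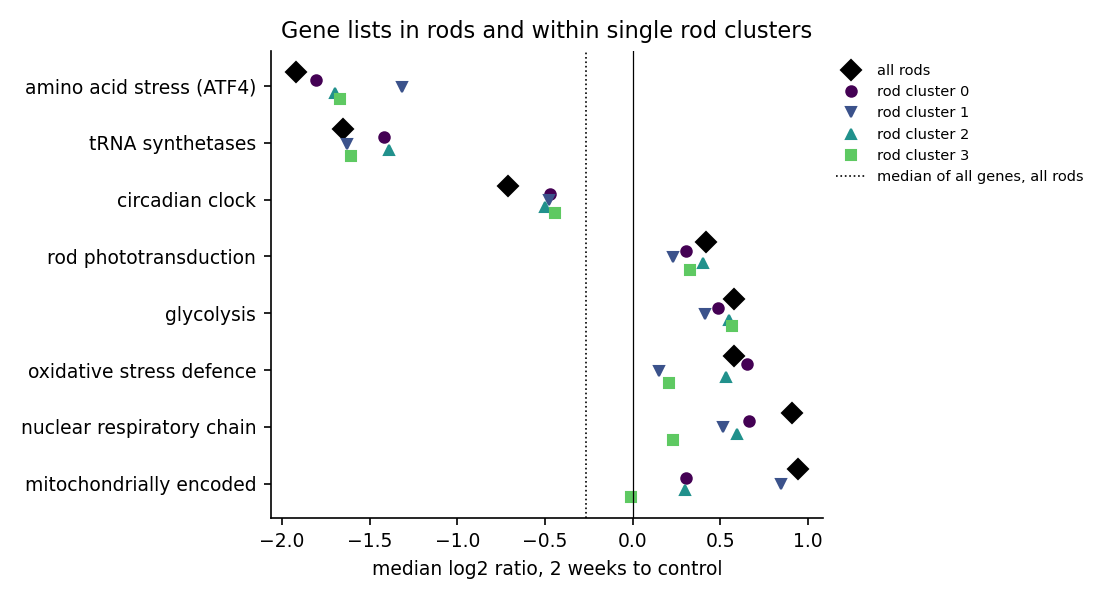
Median log2 ratio of 2 weeks to control for gene lists in all rods (black diamonds) and inside each of 4 single rod clusters (coloured symbols); the dotted line is the median of all genes, -0.27. The amino acid stress and tRNA synthetase lists lie between -1.92 and -1.31 throughout, whereas the mitochondrially encoded list runs from -0.01 to 0.94.

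Immediate early genes, which cells switch on within minutes of a stimulus, did not move as a group in rods: 1 of 10 used members was called higher and 3 lower, with a median of -0.28. Egr1, a zinc finger factor of this group, was the gene furthest up in rods, at 23.8 CPM in control, 516 at 2 weeks, 13.9 at 4 weeks and 13.7 at 8 weeks (4.44, 4.20 to 4.69). It was detected in 142 control rods and 2593 rods at 2 weeks, and stood at 3.38 to 4.58 inside clusters. The 2-week rods stood far above the other 3 libraries, which lay close together. Jun, a partner of Fos in the AP-1 factor, went the other way, at 708 and 78.4 CPM (-3.17, -3.29 to -3.06), with Jund (345 and 79.8 CPM, -2.11) and Ier5 (-1.70). Fos (182 and 117 CPM, -0.63) and Junb (91.6 and 109 CPM, 0.26) were not called.

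Further genes that the naming rule gave in rods were Ptprn, a protein of dense-core vesicles (30.2 and 136 CPM, 2.17), Ypel4 (12.0 and 46.9 CPM, 1.96), the histone gene H3f3c (651 and 1927 CPM, 1.57) and Zfp385b (10.7 and 37.3 CPM, 1.79). Ypel4 and Zfp385b stood higher still in the 4-week rods, at 114 and 48.0 CPM. Vegfa, the vascular growth factor, was lower in 2-week rods, at 221 and 37.0 CPM (-2.58, -2.76 to -2.41; -2.12 to -1.88 inside clusters), with 107 and 153 CPM later. Of 12 used hypoxia genes 3 were called lower, Vegfa with Kdm3a (-1.29) and Ddit4 (1301 and 573 CPM, -1.18), and none higher. The share over all genes was 9.79%, and the list's median of -0.33 lay near that of all genes. Inside clusters 1 to 2 were called lower, and with TMM scaling Kdm3a (-0.91) and Ddit4 (-0.80) lay within 2-fold. Hif1a stood at 305 and 333 CPM (0.13, not called).

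Vegfa had no single direction across classes. In cones it was called higher, at 34.7 and 87.0 CPM (1.28, 0.38 to 2.38). In Müller glia it stood at 285 CPM in control and 463 at 2 weeks (0.70, 0.50 to 0.90, not called), with 866 CPM at 4 weeks and 317 at 8 weeks. Among the classes compared, control rods stood at 221 CPM and control Müller glia at 285, against 37.0 and 463 CPM at 2 weeks. The difference of these contrasts between classes was not tested.

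Transcripts of rods were found in each other class compared, at a higher level at 2 weeks. RNA free in the suspension can bring them into other cells' droplets, as can doublets; no empty droplets were analysed here, and the source was not tested. The summed level of the rod genes Gnat1, Pde6a, Pde6b, Cnga1, Gngt1, Cngb1 and Pde6g was 1242 CPM in control Müller glia and 7088 CPM at 2 weeks, 784 and 4419 CPM in microglia, and 585 and 3233 CPM in endothelial cells. In amacrine cells it was 832 and 3647 CPM, in bipolar cells 1769 and 7196, and in cones 13293 and 18376. In rods themselves it was 29402 and 53679 CPM. Counts of calls outside rods are given below with the number kept after the profile of all cells, scaled by rod genes as an estimate of free RNA, was subtracted.

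Cones are the photoreceptors of daylight and colour. In 175 cones against 91, 104 of 3686 used genes were called higher (2.82%) and 84 lower (2.28%), and 27 and 18 of these calls remained after subtraction. Egr1 stood at 43.4 and 482 CPM (3.43, 2.72 to 4.33), near its level in 2-week rods. Srrm4, a splicing regulator of neurons, stood at 11.6 and 108 CPM (3.06, 1.78 to 5.14), detected in 4 and 43 cones. Crot, a peroxisomal enzyme of fatty acid breakdown, stood at 119 and 308 CPM (1.36), and Hmgb2, a chromatin protein, at 321 and 717 CPM (1.15). Lower at 2 weeks were Slc16a8, a lactate carrier (150 and 39.7 CPM, -1.90), Hopx (573 and 272 CPM, -1.07) and the small heat shock protein Hspb6 (252 and 115 CPM, -1.12).
None of the 13 used cone phototransduction genes was called. Arr3, the cone arrestin, stood at 3762 and 2719 CPM (-0.47), and the opsins Opn1mw at 1085 and 785 CPM (-0.47) and Opn1sw at 1499 and 1728 CPM (0.20). Pde6c, the cone phosphodiesterase, stood at 518 and 320 CPM (-0.70, -1.01 to -0.39).

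Bipolar cells carry the photoreceptor signal inward. In 976 cells against 229, 132 of 5496 used genes were called higher (2.4%) and 87 lower (1.58%), with 71 of each kept after subtraction. In 3 bipolar clusters with at least 30 cells from both libraries, 109 of the 132 were above 0 in each and 75 of the 87 below 0, while 20 and 12 were called in each. Srrm4 was higher here too, at 56.4 and 223 CPM (1.97, 1.56 to 2.43; 1.69 to 2.63 inside clusters). Akap8l, a nuclear scaffold protein, stood at 46.1 and 153 CPM (1.71; 1.22 to 1.98). Both genes were nearer to control in the later libraries, Srrm4 at 84.4 and 48.3 CPM and Akap8l at 71.5 and 66.5 CPM.

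The mix of bipolar clusters also differed between the libraries, and its part in the calls was not tested. A cluster led by Pcp2, Car8 and Isl1 held 8 control cells and 99 cells at 2 weeks, too few in control for a comparison inside it. Pcp2, which binds the G protein of ON bipolar cells, stood at 1064 and 2318 CPM (1.12) and at 0.14 to 1.03 inside clusters. Isl1 stood at 218 and 437 CPM (1.00; 0.18 to 1.64) and Car8 at 40.3 and 127 CPM (1.63). Of 16 used genes listed for the ON bipolar cascade, these 3 and Vsx1 (47.2 and 101 CPM, 1.08) were called higher. Cabp5, a calcium sensor of some bipolar types, was called lower (362 and 151 CPM, -1.26). That list also holds markers by which bipolar cells were named, such as Isl1, Vsx1 and Cabp5. These calls therefore do not describe the cascade alone. The receptor Grm6, which reads the photoreceptor's glutamate, was not called (167 and 116 CPM, -0.53). Lower genes also included the chemokine gene Cxcl14 (64.5 and 5.13 CPM, -3.62), Zg16b (49.5 and 6.50 CPM, -2.91) and the tubulin Tuba1b (960 and 405 CPM, -1.25; -1.48 to -0.49 inside clusters). Serpini1 (-1.53) and Fcer1a (-1.63) changed sign in at least 1 cluster, with upper ends of 0.20 and 1.01.

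Amacrine cells are the inhibitory interneurons of the inner retina. In 476 cells against 168, 130 of 5713 used genes were called higher (2.28%) and 71 lower (1.24%), with 100 and 62 kept after subtraction. Sec14l3, a lipid-binding protein, stood at 89.7 CPM in control and 2.03 at 2 weeks (-5.33, -7.11 to -4.20), in 70 cells against 5. Its ratio was -5.26 and -5.17 inside the 2 clusters measured, and the later libraries stood at 13.6 and 50.9 CPM. P2rx2, an ATP-gated channel, was lower at 48.9 and 7.73 CPM (-2.64), and so was the peptide gene Vip at 474 and 198 CPM (-1.26), which came from 14 cells in control and 13 at 2 weeks.
A cluster led by Pvalb and Gabrd held 15 control cells and 129 at 2 weeks. Over all amacrine cells the calcium buffer Pvalb stood at 276 and 781 CPM (1.50), the GABA receptor subunit Gabrd at 37.5 and 131 CPM (1.79) and Car2, a carbonic anhydrase, at 386 and 1055 CPM (1.45). Car2 was below 0 in both clusters with enough cells (-0.79 and -0.15), and Pvalb above 0 in both (1.06 and 2.83). The glycine carrier Slc6a9 was higher, at 865 and 1883 CPM (1.12; 0.67 and 0.69 inside clusters). The GABA-making enzyme Gad1 was not called, at 1123 and 672 CPM (-0.74).

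Immediate early genes stood lower over all amacrine cells, with 4 of 12 called lower, none higher and a median of -0.75. This held in only 1 of the 2 clusters with enough cells. The list's median was -0.55 in the first (4 of 11 called lower) and 0.05 in the second (1 of 8). The medians over all genes there were 0.06 and 0.07. Fos stood at 280 and 59.4 CPM (-2.24, -2.53 to -1.96), Fosb at 52.2 and 7.32 CPM (-2.81), Jun at 239 and 64.2 CPM (-1.89) and Egr1 at 117 and 41.9 CPM (-1.48). Jun and Egr1 were above 0 in 1 of the 2 clusters (0.38 and 0.73), while Fos and Fosb were below 0 in both.

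Müller glia had more members of this list higher than lower, a difference from amacrine cells that was not tested. In 404 cells against 392, all in 1 cluster at resolution 1.0, 178 of 5937 used genes were called higher (3%) and 85 lower (1.43%). After subtraction 77 and 61 were kept. At resolution 2.0 the Müller cluster held 355 control and 267 2-week cells. An unnamed cluster with 11 Müller and 7 pigment epithelium markers, led by Ttr, held 37 and 137. Of the 178 and 85 calls, 130 and 57 were made at that resolution too. Values below are at resolution 1.0. Of 12 used immediate early genes 6 were called higher and 1 lower, with a median of 0.95, or 0.44 after subtraction. Fos stood at 402 CPM in control, 1025 at 2 weeks, 662 at 4 weeks and 327 at 8 weeks (1.35, 1.20 to 1.50). Btg2, a brake on the cell cycle, stood at 84.1 and 356 CPM (2.08, 1.77 to 2.40), Junb at 127 and 525 CPM (2.04) and Egr1 at 82.6 and 297 CPM (1.84). Dusp1, which ends stress kinase signals (1.44), and Zfp36, which speeds the decay of inflammatory transcripts (1.37), were higher as well. Jun was level, at 453 and 469 CPM (0.05, -0.13 to 0.23), and Ier5 was lower (-1.10). In each of Fos, Btg2, Junb and Egr1 the 2-week library was the highest of the 4. The growth arrest genes Gadd45g (40.2 and 184 CPM, 2.19) and Gadd45b (24.6 and 85.6 CPM, 1.79) and the stress-linked factor Cebpd (243 and 527 CPM, 1.11) were higher too.

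**Figure D4:**
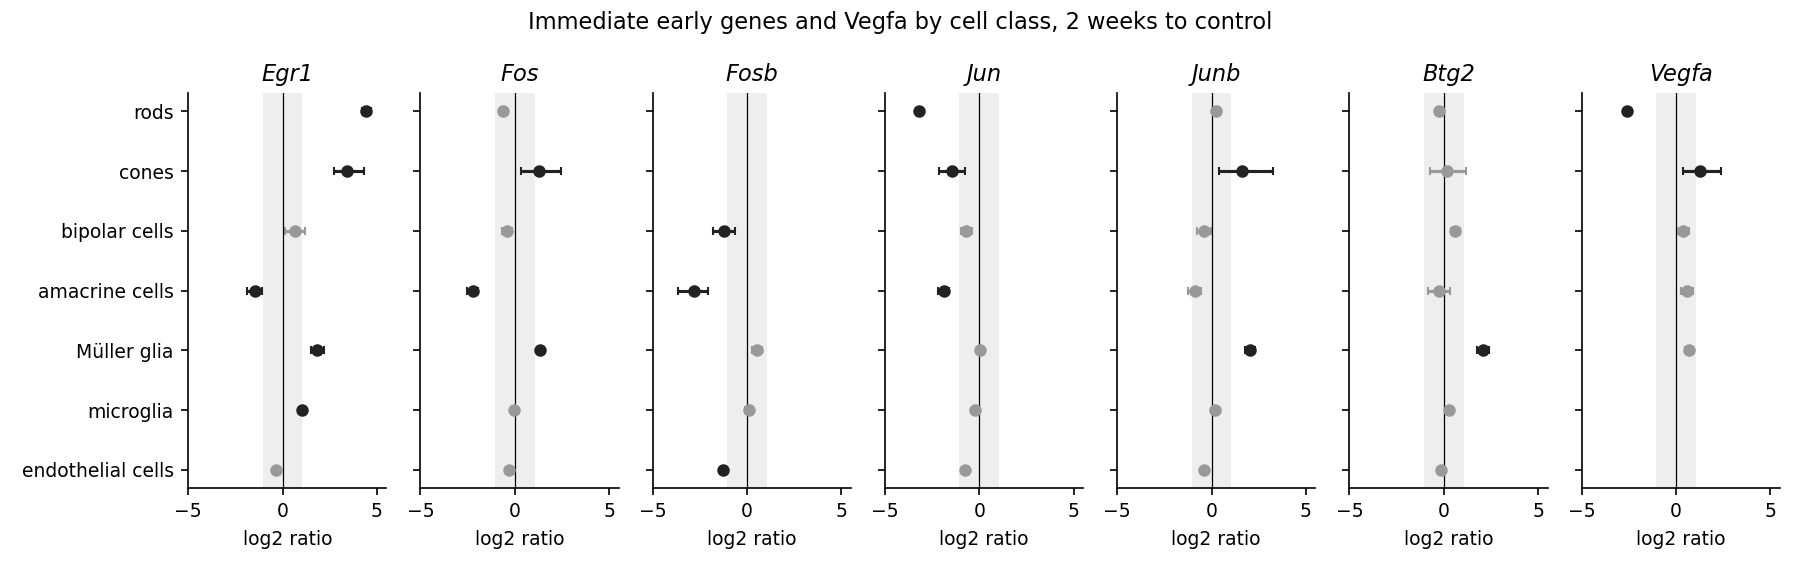
Log2 ratio of 2 weeks to control for 6 immediate early genes and Vegfa in the 7 classes, with counting-error 95% intervals; black points were called, grey points were not, and the grey band spans a 2-fold difference either way. Egr1 lies at 4.44 in rods and -1.48 in amacrine cells, and Fos at 1.35 in Müller glia and -2.24 in amacrine cells.

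The genes that carry out the work of Müller glia differed little. Of 16 used homeostasis genes 1 was called, Rgr, whose 2-week UMIs came almost all from 1 cell. Glul, which makes glutamine from glutamate, stood at 8602 and 6340 CPM (-0.44), Rlbp1, which carries retinoids, at 3697 and 2582 CPM (-0.52), and the water channel Aqp4 at 1071 and 971 CPM (-0.14). Gfap, whose rise marks reactive glia, stood at 21.6 and 30.2 CPM (0.49, -0.30 to 1.27), and none of 9 used reactivity genes was called. None of 14 used cholesterol synthesis genes was called, although all 14 were below 0 (median -0.50), with Sc5d at 115 and 57.4 CPM and Hmgcs1 at 48.4 and 28.2 CPM (-0.76).

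Txnip, a glucose-responsive inhibitor of thioredoxin, was lower in Müller glia at 2 weeks, at 147 and 27.2 CPM (-2.41, -3.07 to -1.84), with 54.9 and 53.9 CPM at 4 and 8 weeks. Control glia were the highest of the 4 libraries. Prss56, a secreted protease, stood at 180 and 39.3 CPM (-2.18) and varied widely, with 1.06 and 377 CPM in the later libraries. Hhatl (789 and 331 CPM, -1.25), the nuclear receptor Rorb (894 and 402 CPM, -1.15), the fatty acid elongation enzyme Hacd2 (612 and 272 CPM, -1.17) and the junction protein Cldn23 (176 and 66.5 CPM, -1.40) were lower too. Cldn16, a claudin of paracellular ion transport, was nearly confined to the 2-week library, at 0.744 and 46.3 CPM in 1 and 43 cells (5.39, 3.41 to 11.30). The cartilage-type collagen Col9a1 was higher (269 and 574 CPM, 1.09). Of 8 used interferon and class I genes 3 were called higher in Müller glia and none lower (median 0.23), namely RT1-A1 (37.2 and 175 CPM, 2.23), RT1-T24-4 (5.21 and 43.3 CPM, 2.97) and RT1-S3 (66.2 and 149 CPM, 1.17). RT1-CE5, outside that list, was higher too (15.6 and 56.4 CPM, 1.83). Of the 13 mitochondrially encoded genes 6 were called higher (median 0.86, or 0.61 after subtraction). The mitochondrial limit acts on these same genes, and it removed 1.01% of control and 22.0% of 2-week Müller barcodes.

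Microglia numbered 103 at 2 weeks and 136 in control and lay in 2 clusters. The first, led by the chemokine genes Ccl4, Ccl3 and Cxcl2, held 98 of the 2-week cells and 72 of the control cells. The second, led by complement genes, held 5 and 64. Over all microglia 330 of 4626 used genes were called higher (7.13%) and 112 lower (2.42%), with 233 and 88 kept after subtraction and a median over all genes of 0.15. TMM scaling moved all values by -0.20 and gave 164 higher and 199 lower. Inside the chemokine-led cluster all 330 were above 0 and all 112 below 0, and 170 and 76 of them were called there.

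Of 8 listed class II genes, whose products show peptides to helper T cells, 3 were used in microglia. All 3 were called lower at 2 weeks, beside 2.42% over all genes. RT1-Da and RT1-Ba, without a UMI at 2 weeks, passed the filter only through control. Their calls followed from that, so the count of 3 is no support for a difference of the group. Cd74, the chain that guides class II molecules, stood at 417 CPM in control and 64.7 at 2 weeks (-2.67, -3.22 to -2.19; -2.53 in the chemokine-led cluster), with 163 and 167 CPM later. RT1-Da had 63 UMIs in control and 0 at 2 weeks, and RT1-Ba 45 and 0, which with 3 counts for a sum of 0 puts their log2 ratios at or under -3.67 and -3.19. In the 2-week library 83.8% of the Cd74 UMIs and 99.0% of those of RT1-Da lay in cells of unnamed clusters. In control 30.2% of the RT1-Da UMIs and 22.2% of those of RT1-Ba came from 1 cell. The class I gene RT1-A2 stood at 1844 and 505 CPM (-1.87, -2.06 to -1.69). RT1 genes are near-identical copies between which the counting may divide reads, so single RT1 values are uncertain.

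Interferon and class I genes had 5 of 14 used members called lower in microglia, none higher and a median of -0.64. They were the class I genes RT1-A2 and RT1-S3 (-1.21) and the peptide-loading gene Tapbp (-1.53). With them were the antiviral genes Mx1 (53.5 and 10.8 CPM, -2.21) and Ifit2 (172 and 70.1 CPM, -1.29). Of 16 used inflammatory genes, the cytokines Tnf (274 and 120 CPM, -1.18), Ccl2 (219 and 102 CPM, -1.09) and Cxcl1 (141 and 68.3 CPM, -1.03) were called lower, and Nlrp3, the inflammasome sensor, was called higher (108 and 237 CPM, 1.13). Inside the chemokine-led cluster 7 of 16 were called lower and none higher, and the median went from -0.30 to -0.98. The receptor Axl, which takes up dying cells, stood at 68.8 and 7.18 CPM (-3.10, -5.18 to -1.83), in 44 cells against 3. The lysosomal genes Cd68 (91.7 and 35.9 CPM, -1.32) and Hexa (201 and 88.0 CPM, -1.18) were called lower of 17 used.

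None of 13 used homeostatic microglia genes was called (median -0.35). Inside the chemokine-led cluster none of 13 was called either, with a median of -0.11 beside 0.14 over all genes there. The fractalkine receptor Cx3cr1 stood at 449 and 291 CPM (-0.62) and P2ry12 at 303 and 232 CPM (-0.39). Complement C1qa was at 5687 and 4792 CPM (-0.25). Among higher genes, Fkbp5, a target of the glucocorticoid receptor, stood at 28.4 and 138 CPM (2.27, 1.63 to 2.99; 1.74 inside the cluster), with 70.0 and 138 CPM later. Cybb, the catalytic chain of the phagocyte oxidase, stood at 91.7 and 262 CPM (1.51; 1.69 inside the cluster). Rnf39 (3.27 and 62.9 CPM, 4.06) was detected in 3 and 29 cells. Of 18 used immediate early genes 1 was called higher, Egr1 (2374 and 4816 CPM, 1.02), and 3 lower (median 0.03). Inside the cluster Egr1 stood at 0.33, 4 of 18 were called lower and none higher, and the median was -0.64. Hist1h2bcl1, a histone gene, was among the lowest genes in microglia, at 354 and 30.5 CPM (-3.49, -4.33 to -2.83).

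Endothelial cells line the retinal vessels and form the barrier between blood and retina. In 421 cells against 92, 176 of 5147 used genes were called higher (3.42%) and 121 lower (2.35%), with 113 and 100 kept after subtraction. A single cluster held 407 and 91 of these cells, and inside it 175 of the 176 were above 0 and all 121 below 0, with 159 and 111 called there. A smaller cluster, led by Pi16 and S100a6, held 14 cells at 2 weeks and 1 in control. Pi16 itself came from 1 control cell and 27 cells at 2 weeks (17.5 and 280 CPM, 3.95, and 2.18 inside the main cluster). Phlda3, with very few control UMIs, stood at 1.35 and 55.9 CPM (4.80, and 2.08 inside it). S100a6, a calcium-binding protein, stood at 91.6 and 745 CPM (3.01, 2.67 to 3.39; 3.40 inside it). The arterial connexin Gja4 (9.43 and 56.3 CPM, 2.48) and the secreted protein Wfdc1 (139 and 785 CPM, 2.49) were higher as well.

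In endothelial cells 5 of 19 used interferon and class I genes were called lower and 2 higher, with a median of -0.70. The lower genes named next include some from outside that list. Irf7, a master regulator of the type I response, stood at 86.2 and 16.9 CPM (-2.35, -2.95 to -1.77), Isg15 at 278 and 85.7 CPM (-1.70), Mx2 at 222 and 70.4 CPM (-1.66) and Oas1a at 88.9 and 35.4 CPM (-1.33). Usp18, which removes Isg15 from proteins, stood at 111 and 25.3 CPM (-2.12). RT1-A2 was lower (531 and 155 CPM, -1.78), while RT1-A1 (21.6 and 135 CPM, 2.61) and RT1-T24-4 (53.9 and 439 CPM, 3.01) were higher and RT1-T24-3 was lower (996 and 325 CPM, -1.62). These copies thus differed in direction within 1 class. The inflammatory genes Cxcl1 (86.2 and 12.5 CPM, -2.78) and Icam1 (45.8 and 14.9 CPM, -1.62) were called lower, of 6 used; in control 46.9% of the Cxcl1 UMIs came from 1 cell.

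Of 19 used barrier genes 3 were called lower and none higher, and all 3 serve uptake. Tfrc, which takes up transferrin iron, stood at 189 and 49.9 CPM (-1.92, -2.28 to -1.56), Slc38a5, which carries glutamine, at 307 and 96.6 CPM (-1.67) and Slc7a5, which carries large neutral amino acids, at 632 and 301 CPM (-1.07). The junction genes Ocln (179 and 226 CPM, 0.33) and Tjp1 (261 and 328 CPM, 0.33) and the glucose carrier Slc2a1 (3888 and 3063 CPM, -0.34) were not called. Flow-responsive Klf2 (63.3 and 22.1 CPM, -1.52), with Klf6 (-1.80), Fosb (616 and 258 CPM, -1.26) and Nr4a1 (702 and 338 CPM, -1.06), were the 4 of 17 immediate early genes called lower, and none was higher. The heat shock genes Hspa1b (2459 and 970 CPM, -1.34), Hspb1 (2354 and 1148 CPM, -1.04) and Dnajb4 (-1.66) were called lower of 16. The clock genes Dbp (174 and 36.6 CPM, -2.25), Ciart (-2.48) and Nr1d2 (-1.16) were lower of 11. Of 13 used angiogenesis genes, Vegfc was called higher (20.2 and 60.8 CPM, 1.55) and the apelin receptor Aplnr lower (29.6 and 14.1 CPM, -1.09), and Kdr, the main VEGF receptor, was not called (147 and 133 CPM, -0.15).

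**Figure D5:**
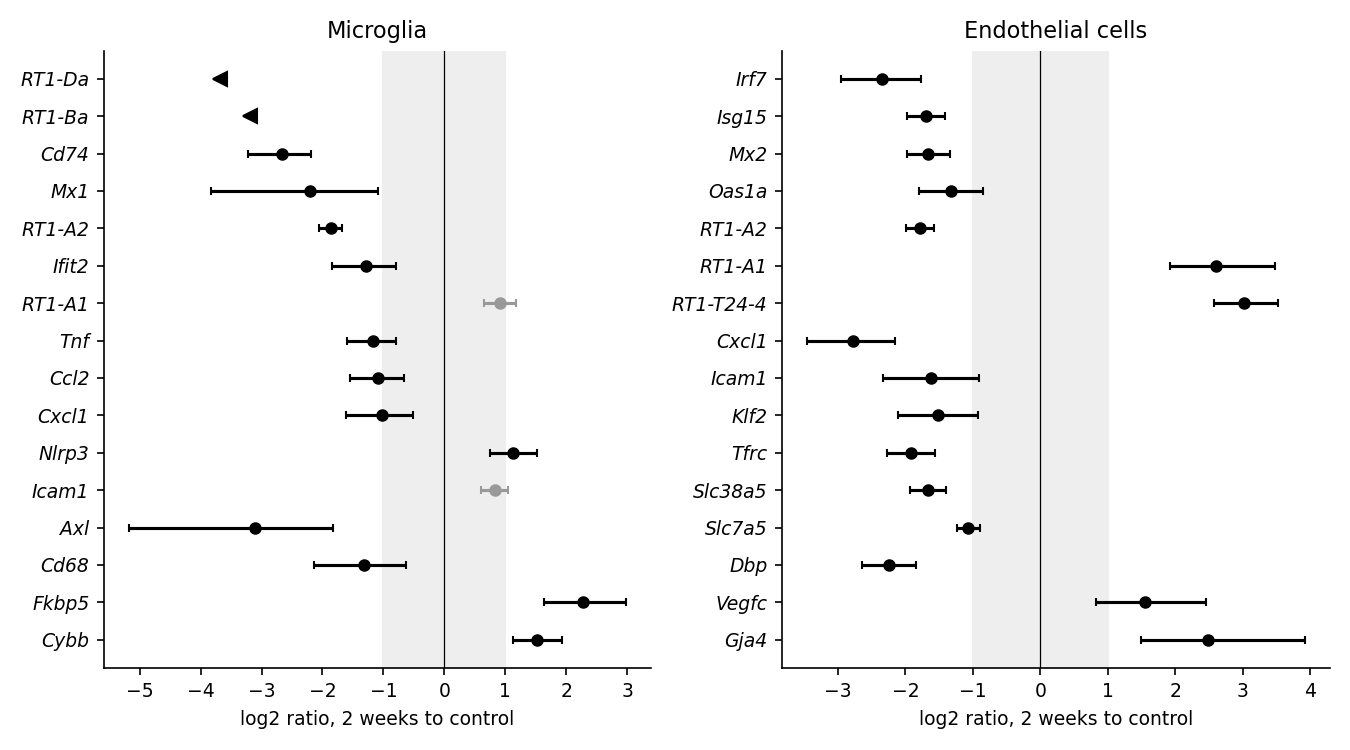
Log2 ratio of 2 weeks to control for immune, stress and transport genes in microglia (left) and endothelial cells (right), with counting-error 95% intervals; black points were called, grey points were not, left-pointing triangles are bounds for genes with 0 UMIs at 2 weeks, and the grey band spans 2-fold either way. The bounds of the class II genes RT1-Da and RT1-Ba lie at -3.67 and -3.19 in microglia, and RT1-A1 and RT1-A2 lie on opposite sides of 0 in endothelial cells.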

How the data were processed

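The deposited matrices hold raw UMI counts for 25399 genes, and the authors made them with Cell Ranger 3.0.1 on the Rnor_6.0 build, per the submitters' processing notes; no header records a normalization, and every deposited barcode had at least 500 UMIs. Counts of whole UMIs were summed per library and class.
Cells of the 4 libraries with a matrix were clustered together (scanpy 1.11.5, 2000 variable genes, 30 principal components, 15 neighbours, leidenalg 0.10.2, resolution 1.0) after the top Scrublet scores, 0.8% per 1000 barcodes, were removed as doublets (577 control and 1627 2-week cells; kept in sums over all cells). Markers named 25 of 29 clusters, at least 3 markers each. Ratios used 0.5 added counts, or 3 counts in place of a sum of 0, which gives a bound. Their intervals were exact conditional binomial 95% intervals (scipy 1.17.1), and those of shares were exact Clopper-Pearson intervals. TMM came from edgeR 4.0.16. Simulated counts were drawn from the control profile with counting error only, which is the model behind the intervals. Of 200 genes changed 4-fold, 91.5% were recovered in rods and 88.5% in microglia. Among unchanged genes, 0 of 5916 and 44 of 4351 were called. Differences in animal, cell mix and scaling were not simulated, so these values are no error rates for the real comparison.
Genes were named per class as the 8 higher and 8 lower called genes with the interval bound furthest from 0, in at least 10 cells and with at most 50% of UMIs in 1 cell, and in its class at no lower CPM than in all cells (0.5 of it in rods), plus list members; list members beyond the extremes were chosen after their values were seen. Members, lists, markers and alternatives were chosen with earlier results of these data known. Symbols of more than 1 gene (128) are not named or listed. Counts of called genes that the later libraries share were left out, since all use 1 control.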

Additional observations from a re-analysis of the deposited data

Results flagged for a closer look

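RT1-A1, a class I antigen gene, was called higher in some classes and lower in rods. In endothelial cells it was 21.6 CPM in control and 135 CPM at 2 weeks, a log2 ratio of 2.61 with an interval of 1.93 to 3.47. In rods it was 456 and 132 CPM, a log2 ratio of -1.78 with an interval of -1.88 to -1.69, and it lay between -1.85 and -1.13 inside the 4 rod clusters. It was also called higher in Müller glia (37.2 and 175 CPM, 2.23) and in amacrine cells (7.34 and 36.6 CPM, 2.25). Each class is 1 library a side, and the difference between the classes was not tested. RT1-A2, a near-identical gene, was lower in both classes (531 and 155 CPM in endothelial cells, 716 and 269 CPM in rods). Reads may be divided differently between such copies in different animals, which was not tested here.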

How the results depend on the processing

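No paired analysis was possible because each group has 1 analysed library and no replicate could be left out. Of the called counts, 92 values under alternatives stayed within 1.5 times and 48 did not; of the shares, 30 stayed, 14 moved and 1 reversed; of the named genes, 952 ratios stayed, 161 moved and 4 reversed (none was given at 3 UMIs or fewer in both libraries); of the list medians, 1113 stayed, 206 moved and 3 reversed. Counts below are higher, then lower, at 2 weeks where 2 stand together.

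With at most 10% mitochondrial UMIs, all cells gave 249 higher, cones 46 and 29, and bipolar cells 68 and 42. Log2 ratios of shares were then -0.13 in rods, 0.76 in cones, -0.11 in bipolar cells, 1.47 in amacrine cells, -0.30 in Müller glia, -0.70 in microglia, 2.22 in endothelial cells and 3.10 in pericytes and smooth muscle. With at most 40%, all cells gave 143 lower and bipolar cells 52 lower, and share ratios were -0.11 in rods, 0.16 in bipolar cells and -0.41 in Müller glia; with no limit they were -0.10 in rods, 0.073 in bipolar cells and -0.30 in Müller glia. In rods with at most 5%, an alternative chosen after seeing the data, 357 genes were lower. TMM scaling gave 419 and 187 in rods and 164 and 199 in microglia.

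A mean of at least 5 CPM, which lets in more low genes, gave 253 and 558 in all cells, 1200 lower in rods, 291 and 158 in amacrine cells, 293 and 163 in bipolar cells, 165 lower in Müller glia and 319 and 186 in endothelial cells. A mean of at least 100 CPM gave 31 and 52 in all cells, 115 lower in rods, 24 and 20 in cones, 25 and 13 in amacrine cells, 32 and 17 in bipolar cells, 49 and 13 in Müller glia, 55 and 26 in microglia and 41 and 29 in endothelial cells. Cells thinned to 1000 UMIs gave 369 lower in all cells, 39 and 23 in cones, 84 and 29 in microglia and 87 and 71 in endothelial cells. With doublets kept, bipolar cells had 72 higher. With free RNA subtracted, cones had 241 higher, Müller glia 186 lower and microglia 221 lower. At resolution 2.0 the share ratio of Müller glia was -1.10. Except where fewer or more genes entered by construction, the cause was not tested.

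With at most 10% mitochondrial UMIs, Car2 in amacrine cells changed sign (-0.27). Fcer1a in bipolar cells then stood at 3.10 or above, from 0 control and 19 2-week UMIs. In thinned cells P2rx2 in amacrine cells changed sign (0.38 from 1 and 5 UMIs), a ratio that depends on the added 0.5 counts. Phlda3 in endothelial cells stood there at -0.00117 or above, from 0 and 14 UMIs. Both bounds come from setting a sum of 0 to 3 counts, and Phlda3 counts as reversed only through its bound. With free RNA subtracted the median of rod phototransduction genes changed sign in bipolar cells (-0.45) and amacrine cells (-1.02), and that of ribbon synapse genes in microglia (-0.0187). Depth limits cones and microglia most, where ratios near 2-fold have wide intervals. Counting intervals leave out variation between animals, which 1 library a side cannot measure.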
